A study of Mus musculus with 17 samples.

Results

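The genes described are 10 histone acetyltransferases of the mouse, a chosen set of the enzymes that place acetyl groups on histone lysines. They were chosen by symbol, as every row of the 4 deposited count tables that names Crebbp, Ep300, Kat2a, Kat2b, Kat5, Kat6a, Kat6b, Kat7, Kat8 or Hat1. All 10 were listed in each table and passed the filter on low counts in each comparison, out of 35841 genes with a value in every library of at least 1 table.

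Histone acetyltransferases move the acetyl group of acetyl-CoA onto lysines of histones, which loosens the contact of histone tails with DNA and gives bromodomain proteins a mark to bind. The members come from 3 protein families: Crebbp and Ep300 (the coactivators CBP and p300), the GNAT enzymes Kat2a (GCN5), Kat2b (PCAF) and Hat1, and the MYST enzymes Kat5 (TIP60), Kat6a (MOZ), Kat6b (MORF), Kat7 (HBO1) and Kat8 (MOF). In neurons CBP is best known as the coactivator recruited by the activity-dependent transcription factor CREB, and its loss impairs long-term memory in mice.

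RNA came from C57BL/6 mouse brain, as 14 libraries of primary neurons in 7 groups of 2 and 3 libraries of hippocampus with 1 in each group. The neuron groups were ADM treated and ADM control, ApoE particle treated and control in a first set, and ApoE reconstituted particle treated, ApoE particle treated and control in a second set. The hippocampi came from mice given ApoE shRNA with FC, control shRNA with FC, and control shRNA without FC, an shRNA being a short hairpin RNA that lowers its target transcript. ADM and FC are not spelled out in the labels, and the labels used here give no dose, duration, age, source of the particles or number of cultures, so p-values measure only the spread between these libraries. The comparisons ask how neurons treated with ApoE particles or ADM, and hippocampi with ApoE shRNA, differ in transcripts from their controls.

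Library totals ran from 14.62 to 19.14 M counts, and the members held between 267 and 3561 counts per library. Pan-neuronal markers (8 genes) summed to between 5206 and 7397 CPM (counts scaled to a library total of 1000000) in the neuron libraries, and astrocyte markers (10 genes) to between 705 and 4667 CPM. The cultures therefore held glial transcripts beside neuronal ones. Differences in the number of cells of a type and in the RNA per cell cannot be told apart in such bulk samples. Apoe, the target of the shRNA, stood at 1384 CPM in the hippocampus with ApoE shRNA and FC, against 2797 CPM with control shRNA and FC and 1697 CPM with control shRNA without FC.

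Every member was expressed in every library. Levels are compared between genes per kilobase of annotated exon. This length joins the exons of all annotated transcripts of a gene, expressed or not, so the order between genes is approximate. Kat2a was the highest by its median level over the 17 libraries, at 21.9 CPM per kb (range 18.6 to 27.4). Kat6a followed at 18.5 (7.69 to 23.1) and Kat7, which acetylates histone H4 and H3 near replication origins and promoters, at 16.0 (14.7 to 19.9). Kat5, the catalytic subunit of the TIP60 complex, stood at 10.3 CPM per kb (8.23 to 12.9).

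The rest of the order was close together. Ep300 (median 7.72 CPM per kb, 6.37 to 10.2), Hat1 (7.54, 4.90 to 12.8), Kat8 (7.52, 5.95 to 8.78), Crebbp (6.55, 5.66 to 9.55) and Kat6b (6.40, 4.27 to 8.82) had overlapping ranges. Kat2b had the lowest median, 4.55 CPM per kb (3.29 to 8.62). Kat2b is the close paralogue of Kat2a and can take its place in the SAGA and ATAC complexes. Kat7 lay above Kat5 in range without overlap, and every other pair of neighbours in the order overlapped. By group means Kat2a ranked first in 9 of the 10 groups, and Kat6a was ahead of it in the ADM control group.

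The members differed in how much they varied. The ratio of the highest to the lowest library in CPM was 3.0 for Kat6a, 2.62 for Kat2b, 2.62 for Hat1 and 2.06 for Kat6b, and lay between 1.36 for Kat7 and 1.69 for Crebbp among the other 6. Kat6a, the acetyltransferase of the MOZ complex, had 70.6, 93.0 and 75.2 CPM in the hippocampi with ApoE shRNA and FC, control shRNA and FC, and control shRNA without FC, all below the lowest neuron library (96.1 CPM, a control of set 1). Kat6b, the paralogue of Kat6a, had 71.9, 73.6 and 75.7 CPM in the same hippocampi, again below the lowest neuron library at 89.2 CPM. Kat2b and Hat1 reached their highest levels in the ApoE particle libraries of set 1, at 42.0 and 37.0 CPM, and their lowest in the hippocampus with ApoE shRNA and FC, at 16.0 and 14.1 CPM. The neuron and hippocampus libraries were deposited in separate tables, and no test was made between them.

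**Figure D1:**
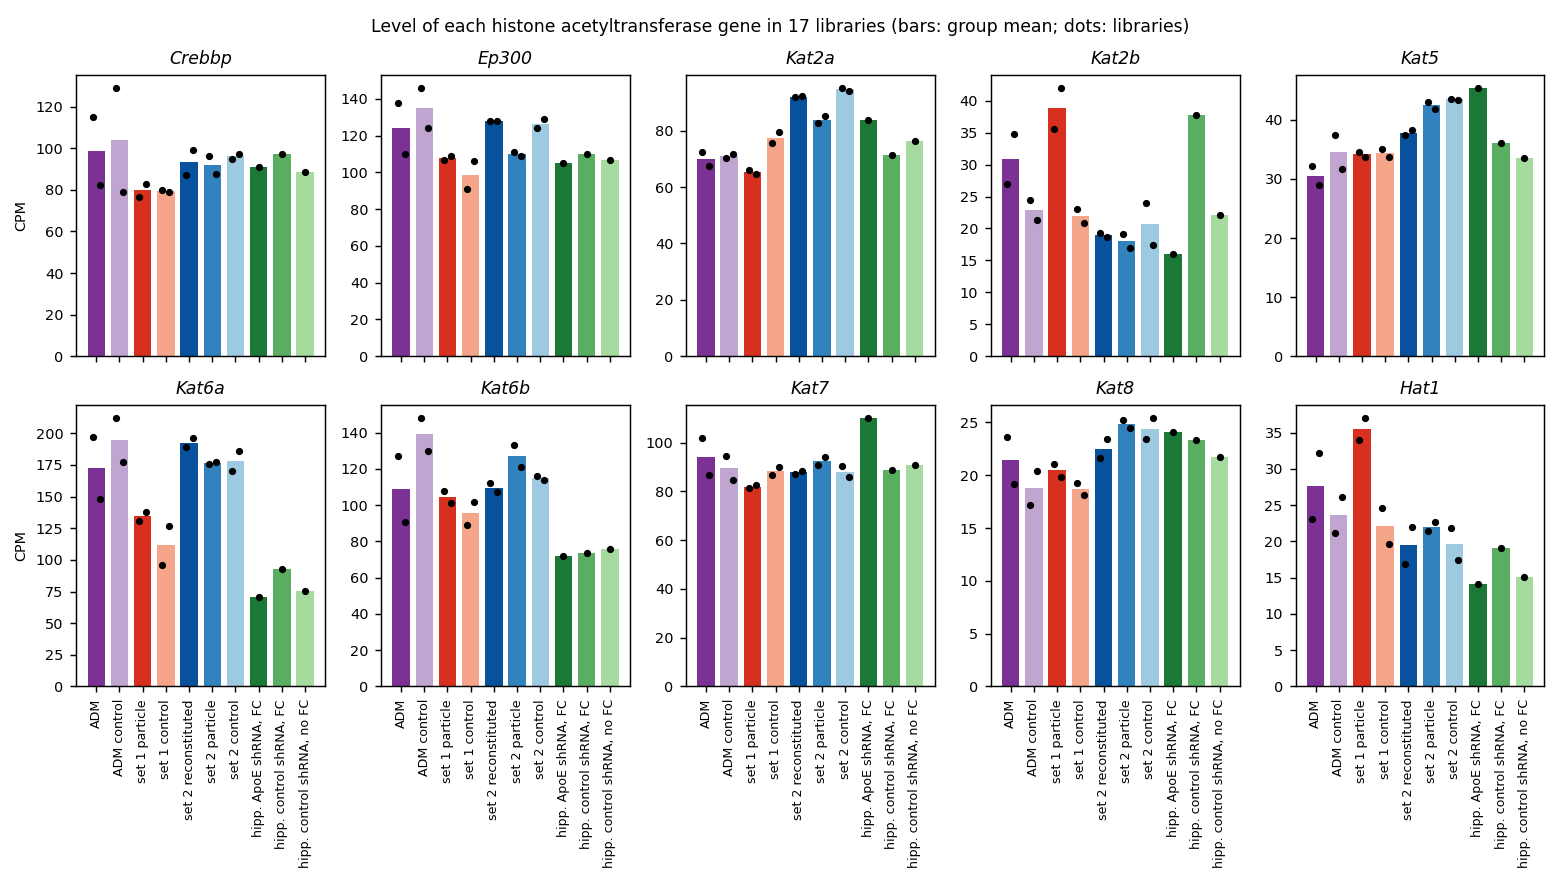
CPM of each of the 10 histone acetyltransferase genes (1 panel each, linear axes from 0) in the 10 groups, with dots for the 17 libraries and bars for the group means. By group mean Kat2b and Hat1 stand highest with the ApoE particle in set 1 (35.6 and 42.0 CPM for Kat2b in its libraries). Kat2b in the hippocampus with control shRNA and FC (37.7 CPM) lies between these libraries. Kat6a and Kat6b are lowest in the 3 hippocampus libraries.

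With the ApoE particle in set 1, transcripts of 3 of the 10 enzymes differed from control: Kat2b and Hat1 rose and Kat2a fell. Among all 16475 genes tested, 36.4% were called (adjusted p under 0.05), so 3 of 10 members is near the share of all genes. The median log2 fold change of the members was 0.02, against −0.01 for all genes, and their median size regardless of sign was 0.14, against 0.30. The particle and control libraries did not overlap in CPM for 7 of the 10 members, against 68.3% of all genes. Of the calls among all genes, 52.0% were in the higher direction with TMM scaling, and 65.6% when library totals alone set the scale. Scaling by library totals moved the median log2 fold change of all genes to 0.0978.

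Kat2b (ENSMUSG00000000708, mm10 chr17:53566861-53672720, plus strand) encodes PCAF, an acetyltransferase of histone H3 that also acts as a transcriptional coactivator. It had 35.6 and 42.0 CPM in the ApoE particle libraries, against 23.0 and 20.8 CPM in the controls (38.8 ± 4.46 against 21.9 ± 1.49 CPM, SD, n = 2 each). Both particle libraries lay well above both controls. By edgeR's quasi-likelihood test the log2 fold change was 0.72 ± 0.12 (SE; a 1.65-fold difference, 95% interval 1.38 to 1.97), with a Benjamini-Hochberg adjusted p of 0.000585. Kat2b was called in all 10 alternative analyses, with adjusted p between 4.73e-08 and 0.00859.

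Hat1 (ENSMUSG00000027018, mm10 chr2:71388958-71441622, plus strand) acetylates newly made histone H4 before it is built into chromatin. It had 34.0 and 37.0 CPM in the ApoE particle libraries, against 24.6 and 19.6 CPM in the controls. The groups did not overlap. The log2 fold change was 0.59 ± 0.12 (1.5-fold, 95% interval 1.24 to 1.81; edgeR adjusted p = 0.00334), and the call held in all 10 alternatives with adjusted p up to 0.0276.

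Kat2a (ENSMUSG00000020918, mm10 chr11:100704746-100712465, minus strand) encodes GCN5, the SAGA and ATAC acetyltransferase of histone H3. It had 66.0 and 64.7 CPM in the ApoE particle libraries, against 75.5 and 79.4 CPM in the controls, without overlap. The log2 fold change was −0.35 ± 0.09 (0.79-fold, 95% interval 0.69 to 0.90; edgeR adjusted p = 0.00876). The call was lost when either particle library was left out, with edgeR adjusted p of 0.0874 without the first and 0.16 without the second.

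Kat2a and Kat2b thus moved in opposite directions in set 1. As a description of their balance, Kat2a made up 72.1% and 68.3% of the summed per-kilobase level of the pair in the ApoE particle libraries, against 82.1% and 84.2% in the controls. In the other neuron libraries the share lay between 73.0% in the second ADM library and 88.3% in the second control of set 2. Among the hippocampi it was 88.0% with ApoE shRNA and FC, 72.6% with control shRNA and FC, and 82.8% with control shRNA without FC.

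The other 7 members did not pass the threshold in set 1. Kat7 had 81.2 and 82.4 CPM in the ApoE particle libraries, against 86.8 and 90.1 CPM in the controls, a log2 fold change of −0.22 ± 0.08 (edgeR adjusted p = 0.0664). Without the first control library it was −0.25, without the second −0.18, and without the first or the second particle library −0.22. By DESeq2 it was −0.22, and with library totals as the scale it was −0.11. Kat7 was called only when a control library was left out. Kat6a had 131 and 138 CPM against 96.1 and 127 CPM in the controls (0.16 ± 0.13, edgeR adjusted p = 0.359), and was called only without the second control library (0.40, edgeR adjusted p = 1.03e-05). The coactivators had log2 fold changes of −0.10 ± 0.09 for Crebbp (95% interval −0.29 to 0.09) and 0.03 ± 0.10 for Ep300 (−0.19 to 0.24). Kat5, Kat6b and Kat8 lay between −0.11 and 0.02.

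**Figure D2:**
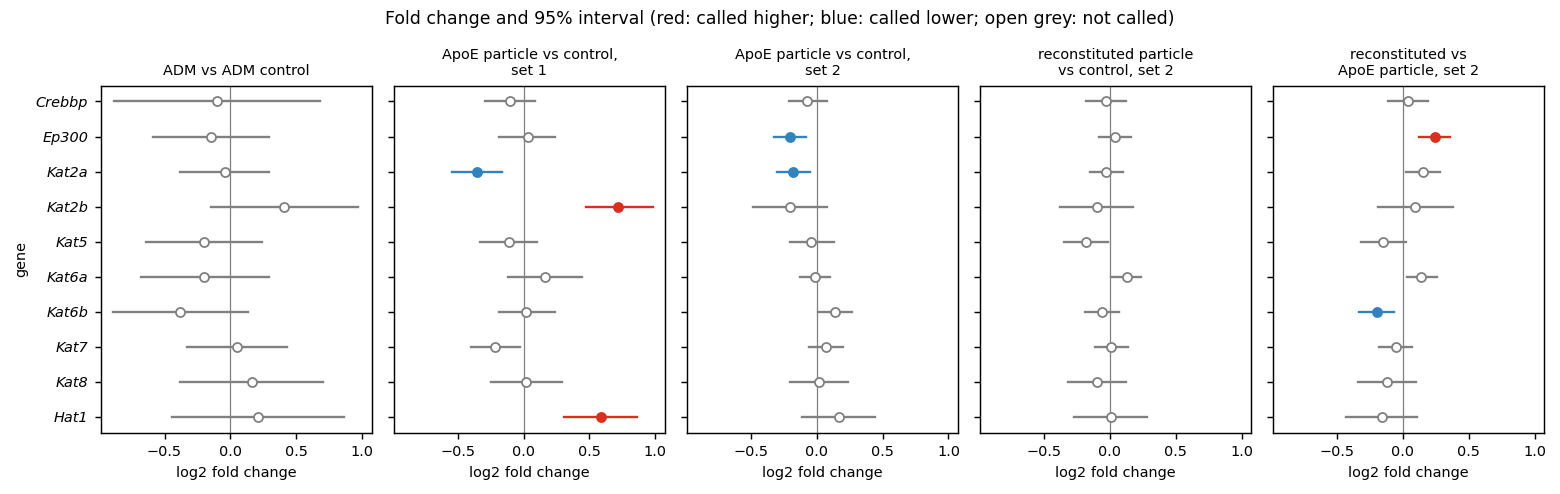
log2 fold change of each member (rows) with its 95% interval (lines) in the 5 neuron comparisons (panels), from edgeR. Kat2b (0.72) and Hat1 (0.59) are called higher and Kat2a (−0.35) lower in set 1, Ep300 (−0.20) and Kat2a (−0.18) are called lower with the ApoE particle in set 2, and no member is called in the ADM and reconstituted-against-control panels.

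Markers of several cell types moved beside Kat2b and Hat1 in set 1. Proliferating cell markers were called higher in 12 of 12 cases, and summed to 795 and 917 CPM in the ApoE particle libraries, against 287 and 247 CPM in the controls. Microglia markers were called higher in each of the 9 tested out of 10, at 253 and 253 CPM against 74.4 and 60.7 CPM. Astrocyte markers were called higher in 8 of 10 and lower in 1, at 4667 and 4513 CPM against 3347 and 3013 CPM.

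Vessel and fibroblast markers stood at 297 and 327 CPM in the ApoE particle libraries of set 1, against 88.6 and 67.3 CPM in the controls, with 5 of 9 called higher and 1 lower. Pan-neuronal markers were called lower in 7 of 8, at 5379 and 5206 CPM against 7035 and 7187 CPM, and excitatory neuron markers were called lower in 7 of 8. Choroid plexus markers were called higher in 3 of 4 tested, and summed to at most 67.2 CPM. The part of these cell types in the fold changes of Kat2b, Hat1 and Kat2a was not tested.

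**Figure D3:**
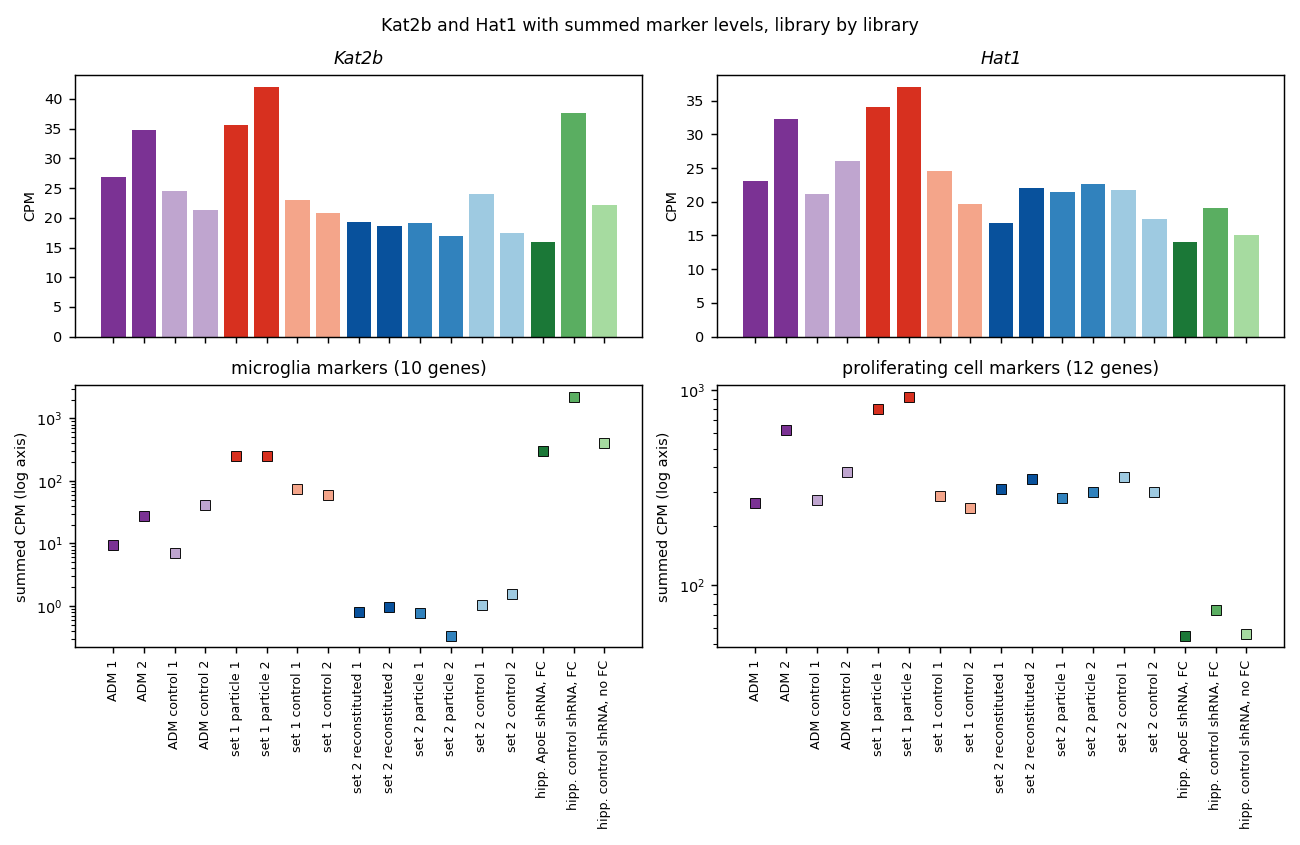
Kat2b and Hat1 in CPM (bars, upper panels) and the summed CPM of 10 microglia markers and 12 proliferating cell markers (squares, lower panels, log axes) in each of the 17 libraries. The ApoE particle libraries of set 1 are high in all 4 panels, while the set 2 libraries have microglia sums of at most 1.56 CPM.

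The RefSeq promoter table (GRCm38.p6, the mm10 assembly) held windows for 9 members, each from 250 bases before to 50 after a transcript start, and not for Kat6a. The windows of the 2 genes that rose together in set 1, of Kat2a, which fell, and of Ep300, which was called in set 2, are shown. These 4 are the members called with the ApoE particle against control. Kat6b, called between the reconstituted and the ApoE particle, is not shown. Capitals mark the CCAAT box (CCAAT) and the GC box (GGGCGG), 2 common promoter motifs searched on both strands. They were chosen after the values were seen, and the 2 motifs did not overlap in these windows.
Kat2b, chr17:53566721-53567020, plus strand: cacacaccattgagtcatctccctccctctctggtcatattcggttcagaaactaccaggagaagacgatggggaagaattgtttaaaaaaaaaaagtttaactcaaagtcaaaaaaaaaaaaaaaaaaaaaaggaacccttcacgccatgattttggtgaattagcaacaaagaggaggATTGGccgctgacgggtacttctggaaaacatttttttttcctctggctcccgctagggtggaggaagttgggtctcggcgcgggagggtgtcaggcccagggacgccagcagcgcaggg
Hat1, chr2:71389010-71389309, plus strand: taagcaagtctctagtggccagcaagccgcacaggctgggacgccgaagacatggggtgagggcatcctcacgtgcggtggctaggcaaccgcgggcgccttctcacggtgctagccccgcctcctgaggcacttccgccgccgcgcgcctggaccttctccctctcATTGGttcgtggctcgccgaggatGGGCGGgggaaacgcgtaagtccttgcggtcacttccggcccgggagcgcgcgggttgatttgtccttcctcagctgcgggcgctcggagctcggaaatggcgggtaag
Kat2a, chr11:100712418-100712717, minus strand: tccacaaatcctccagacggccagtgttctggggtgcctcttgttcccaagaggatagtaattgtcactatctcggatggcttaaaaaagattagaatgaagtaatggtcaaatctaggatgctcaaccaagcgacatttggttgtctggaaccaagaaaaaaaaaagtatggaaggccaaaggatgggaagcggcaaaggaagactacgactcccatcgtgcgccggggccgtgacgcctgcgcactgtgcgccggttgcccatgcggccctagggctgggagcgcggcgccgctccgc
Ep300, chr15:81585964-81586263, plus strand: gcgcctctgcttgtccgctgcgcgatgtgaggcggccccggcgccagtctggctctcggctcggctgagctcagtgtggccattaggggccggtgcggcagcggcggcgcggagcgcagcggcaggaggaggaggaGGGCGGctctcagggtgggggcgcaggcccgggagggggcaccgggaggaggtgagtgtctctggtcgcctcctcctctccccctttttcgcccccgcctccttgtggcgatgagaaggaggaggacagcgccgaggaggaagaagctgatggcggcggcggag

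The Kat2b and Hat1 windows shown each hold 1 CCAAT box, whose first letter lies at −70 and −83 from the start. A second window of Kat2b, at chr17:53583876-53584175, holds neither motif. The Hat1 window also holds a GC box at −59, and the Ep300 window holds 1 at −114. The Kat2a window holds neither. Kat5, Kat7 and Kat8, none of them called in set 1, also have a window with a CCAAT box. Crebbp, Kat5, Kat6b and Kat8 have a window with a GC box. Over all 32851 windows of the table, 37.4% hold a CCAAT box and 35.7% a GC box. The sterol regulatory element TCACNCCAC, the kind of site bound by the cholesterol-sensing factors SREBP, occurs in 1.24% of all windows. Among the members it is in 1 of the 2 windows of Kat5, at −112, and in no window of the other 8 genes. These matches describe letters only, and binding was not measured.

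With the ApoE particle in set 2, Ep300 and Kat2a fell and no member rose. Of 16388 genes tested, 22.1% were called and 12.1% were called lower, so 2 of 10 members is near the share of all genes. The median log2 fold change was −0.03 for the members and 0.00 for all genes, and the groups did not overlap for 5 of the 10 members, against 60.8% of all genes.

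Ep300 (ENSMUSG00000055024, mm10 chr15:81585351-81652077, plus strand) encodes p300, which acetylates histone H3 at active enhancers and promoters. It had 111 and 109 CPM in the ApoE particle libraries of set 2, against 124 and 129 CPM in the controls, without overlap. The log2 fold change was −0.20 ± 0.06 (0.87-fold, 95% interval 0.80 to 0.95; edgeR adjusted p = 0.0144). The call was lost without the second control library (−0.16, edgeR adjusted p = 0.167) and without the second particle library (−0.18, 0.101).

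Kat2a had 82.7 and 85.2 CPM in the ApoE particle libraries of set 2, against 95.2 and 94.2 CPM in the controls. The log2 fold change was −0.18 ± 0.06 (0.88-fold, 95% interval 0.81 to 0.97; edgeR adjusted p = 0.0393). It was called in 4 of 11 alternatives. The 7 that lost the call included leaving out any of the 4 libraries (edgeR adjusted p between 0.11 and 0.196), DESeq2 (0.141) and no filter on low counts (edgeR adjusted p = 0.0588). In each of the sets, the ApoE particle libraries lay below both controls for Kat2a. Libraries were lower without overlap in CPM for 25.4% of all genes tested in set 1 and 30.3% in set 2.

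Kat2b and Hat1 were not called in set 2. Kat2b had 19.2 and 17 CPM in the ApoE particle libraries, against 24.0 and 17.4 CPM in the controls, a log2 fold change of −0.20 ± 0.14 (95% interval −0.48 to 0.08; edgeR adjusted p = 0.325). Hat1 had 21.4 and 22.7 CPM against 21.8 and 17.4 CPM (0.17 ± 0.13, 95% interval −0.11 to 0.44; edgeR adjusted p = 0.408). Both genes overlapped between the groups. Kat6b had 133 and 121 CPM against 116 and 114 CPM in the controls (0.14 ± 0.06, edgeR adjusted p = 0.114), and was called without the second particle library (0.21, edgeR adjusted p = 0.0403). The log2 fold changes of the other 5 members lay between −0.07 and 0.07.

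Marker sums in set 2 took another course from those of set 1. Astrocyte markers stood at 1100 and 1222 CPM in the ApoE particle libraries, against 1722 and 1604 CPM in the controls, with 8 of 10 called lower and 1 higher. Proliferating cell markers stood at 279 and 299 CPM against 358 and 298 CPM (7 of 12 called lower, 1 higher), and vessel and fibroblast markers at 51.5 and 83.2 CPM against 208 and 137 CPM. Microglia markers summed to at most 1.56 CPM in every set 2 library, with 2 to 6 of the genes listed at 0. Pan-neuronal markers were called lower in 3 of 8. The part of these cell types in the falls of Ep300 and Kat2a was not tested.

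The reconstituted particle, compared with control in set 2, gave no call among the 10 members. The same held for all 16388 genes tested by edgeR (0%), with 776 genes at an unadjusted p under 0.05 and 0 called by DESeq2. The largest fold change among the members was that of Kat5, with 37.4 and 38.3 CPM in the reconstituted particle libraries, against 43.6 and 43.3 CPM in the controls (−0.18 ± 0.08, 95% interval −0.35 to −0.01; unadjusted p = 0.0358, edgeR adjusted p = 1). Kat6a had 189 and 196 CPM against 170 and 186 CPM (0.13 ± 0.05, unadjusted p = 0.0287 and adjusted p = 1 by edgeR). Kat2a, Kat5, Kat6a and Kat6b did not overlap with their controls, which is 4 of 10 members, against 33.3% of all genes.

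Set against the ApoE particle, the reconstituted particle left Ep300 higher and Kat6b lower. Of the 16388 genes tested, 20.3% were called, so 2 of 10 members is again near the share of all genes, and the groups did not overlap for 7 of 10 members, against 59.2% of all genes. Ep300 had 128 and 128 CPM in the reconstituted particle libraries, against 111 and 109 CPM with the ApoE particle (0.24 ± 0.06, 1.18-fold, 95% interval 1.09 to 1.28; edgeR adjusted p = 0.00426), and the call held in all 11 alternatives. Kat6b, which joins the same subunits as Kat6a, had 112 and 107 CPM against 133 and 121 CPM (−0.20 ± 0.06; edgeR adjusted p = 0.0258).

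The Kat6b call was lost without the first ApoE particle library (−0.12, edgeR adjusted p = 0.329), without the second reconstituted library (−0.17, 0.138) and by DESeq2 (adjusted p = 0.0668). Kat2a had 91.9 and 92.2 CPM with the reconstituted particle, against 82.7 and 85.2 CPM with the ApoE particle (0.15 ± 0.06, edgeR adjusted p = 0.0855). Astrocyte markers were higher in 8 of 10 in this comparison, at 1608 and 1704 CPM against 1100 and 1222 CPM. Vessel and fibroblast markers were called higher in 6 of 9 (0 lower) and proliferating cell markers in 5 of 12 (1 lower). Pan-neuronal markers were called higher in 4 of 8 (0 lower) and inhibitory neuron markers in 4 of 7 (1 lower). The part of these cell types in these differences was not tested. The 3 comparisons within set 2 share libraries, so their values are not independent of one another.

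The ApoE particle effect on Kat2b differed between the sets. Its log2 fold change was −0.20 in set 2 and 0.72 in set 1 by the separate fits, and the interaction term over both tables was −0.95 ± 0.20 (set 2 minus set 1; 95% interval −1.38 to −0.52; edgeR adjusted p = 0.00206). All 14 alternatives called it, with adjusted p between 1.21e-06 and 0.0198. It was the only member called by this term in the main analysis, where 31.1% of 17098 genes were called. Microglia markers were at or near 0 in set 2 (at most 1.56 CPM in sum) and at 253 and 253 CPM in the ApoE particle libraries of set 1. Proliferating cell markers were called lower by the same term in 12 of 12 cases. It also called astrocyte markers lower in 7 of 10 and higher in 0, and vessel and fibroblast markers lower in 7 of 9 and higher in 1. Excitatory neuron markers were called higher in 6 of 8 and pan-neuronal markers in 5 of 8, with 0 lower in both lists. The part of these cell types in the Kat2b difference was not tested.

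For Hat1 the term was −0.45 ± 0.18 (edgeR adjusted p = 0.072), so the difference between its rise in set 1 and its value in set 2 did not pass the threshold. It passed with library totals as the scale (−0.52, edgeR adjusted p = 0.0487), without the second control of set 2 (−0.58, 0.037) and without the first control of set 1 (−0.60, 0.00674). Ep300 stood at −0.26 ± 0.12 (edgeR adjusted p = 0.111), and passed with library totals as the scale (−0.33, 0.0336) and without the second control of set 1 (−0.38, 0.00151). Without that library Kat6a also passed (−0.43, edgeR adjusted p = 0.000309), and Kat7 did without the first control of set 1 (0.30, 0.014). Kat2a, called lower in both sets, gave 0.14 ± 0.10 (95% interval −0.07 to 0.36; edgeR adjusted p = 0.309).

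ADM treatment gave no call among the 10 members, nor among all 16191 genes tested by edgeR (0%), where 1426 genes had an unadjusted p under 0.05 and DESeq2 called 304. Other edgeR fits called 128 genes without the filter on low counts, 641 without the first ADM library and 47 without the second, and no member in any of them. Kat2b had 26.9 and 34.8 CPM in the ADM libraries, against 24.5 and 21.3 CPM in their controls (0.41 ± 0.21, 95% interval −0.15 to 0.97; edgeR adjusted p = 0.63). The groups did not overlap, but the interval spans 0. Hat1 had 23.1 and 32.2 CPM against 21.1 and 26.1 CPM (0.21 ± 0.25, edgeR adjusted p = 0.83). Kat6b had 127 and 90.7 CPM against 148 and 130 CPM (−0.38 ± 0.20, edgeR adjusted p = 0.623). No member had an unadjusted p under 0.05, against 8.81% of all genes tested, and Kat2b and Kat6b were the 2 members without overlap, against 39.9% of all genes.

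The ADM libraries stood apart from each other. Vessel and fibroblast markers summed to 70.4 and 1218 CPM in the ADM libraries, against 23.9 and 73.0 CPM in their controls, and proliferating cell markers to 263 and 622 CPM against 273 and 377 CPM. Apoe stood at 222 and 451 CPM against 160 and 624 CPM. Within both groups the second library had less Crebbp, Ep300, Kat5, Kat6a, Kat6b and Kat7 than the first. Crebbp, for example, had 115 and 82.5 CPM in the ADM libraries and 129 and 78.8 CPM in their controls. The test of the ADM effect against the set 1 particle effect called no member and none of 17292 genes by edgeR (0%), with 1768 genes at an unadjusted p under 0.05 and 207 called by DESeq2.

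In the hippocampus, with 1 library a group and hence no test, Kat2b showed the widest differences of the 10. It had 37.7 CPM with control shRNA and FC (670 counts), against 22.1 CPM with control shRNA without FC (402 counts). The log2 ratio was 0.77, with an exact 95% interval from counting error of 0.59 to 0.95. With ApoE shRNA and FC it had 16.0 CPM (303 counts), against 37.7 CPM with control shRNA and FC, a log2 ratio of −1.23 (−1.43 to −1.03). Intervals cover counting error only, and differences between mice are not in them.

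Kat2b was the only member past a log2 ratio of 0.5 in either direction in both of these comparisons, against 20.4% of 12510 genes with at least 100 counts in the first and 27.4% of 12474 genes in the second. Between ApoE shRNA with FC and control shRNA without FC, no member passed 0.5, against 9.93% of 11980 genes, and Kat2b stood at −0.46 (−0.68 to −0.25). Hat1 had 14.1 CPM with ApoE shRNA and FC, against 19.1 CPM with control shRNA and FC (−0.43, −0.67 to −0.20) and 15.1 CPM with control shRNA without FC. Kat6a had 70.6 CPM with ApoE shRNA and FC, against 93.0 CPM with control shRNA and FC (−0.40, −0.50 to −0.29). Kat5 (0.34), Kat7 (0.31) and Kat2a (0.23) were higher with ApoE shRNA and FC than with control shRNA and FC, and Crebbp, Ep300, Kat6b and Kat8 lay between −0.09 and 0.05.

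Microglia markers followed the same order of libraries as Kat2b in the hippocampus. The same order held for Apoe, Hat1, Kat6a, astrocyte markers and proliferating cell markers. An order over 3 libraries cannot tell these apart. Microglia markers summed to 304 CPM with ApoE shRNA and FC, 2193 CPM with control shRNA and FC, and 404 CPM with control shRNA without FC. Of these markers, 10 of 10 were past the fold lower with ApoE shRNA than with control shRNA under FC. Astrocyte markers summed to 5072, 8283 and 6229 CPM in the same order of groups. The part of these cells in the Kat2b values was not tested.

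**Figure D4:**
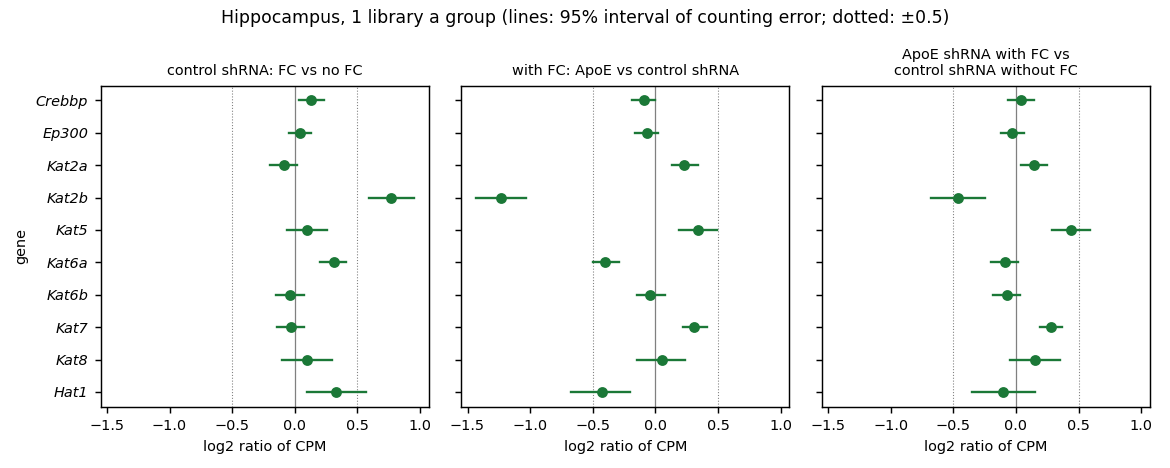
log2 ratio of CPM for each member (rows) between hippocampus libraries, in 3 panels, 1 for each comparison, with exact 95% intervals for counting error (lines) and dotted lines at ±0.5. Kat2b lies at 0.77, −1.23 and −0.46, the largest ratio by size in each panel.

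The genes of the complexes that carry these enzymes gave 73 partner genes in 8 lists, chosen with earlier results of these data known. With the ApoE particle in set 1, 7 of 72 tested partners were called higher and 4 lower, where 36.4% of all genes were called. Among 19 SAGA and ATAC subunits, the complexes of Kat2a and Kat2b, Atxn7l3 of the deubiquitinase module fell (−0.62 ± 0.09, edgeR adjusted p = 0.000248) and Atxn7 rose (0.53 ± 0.13, 0.0074). Among 15 TIP60 complex subunits, the actin-related Actl6a rose by 0.74 ± 0.15 (edgeR adjusted p = 0.00226) and the bromodomain protein Brd8 by 0.26 ± 0.09 (0.0357). Among 9 subunits of the MOZ/MORF and HBO1 complexes the scaffold Jade2 rose (1.05 ± 0.16, edgeR adjusted p = 0.000382) and Meaf6 fell (−0.31 ± 0.09, 0.0181).

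Among 10 subunits of the MSL and NSL complexes, which carry Kat8, only Phf20 was called in set 1 (−0.35 ± 0.09, edgeR adjusted p = 0.00833). Rbbp4 and Rbbp7, histone chaperones that bind Hat1, were not called there. Of the 11 tested factors that work with CBP and p300, Atf1 (0.70 ± 0.15, edgeR adjusted p = 0.00339), a relative of CREB, and its coactivator Crtc3 (0.53 ± 0.10, 0.00126) rose. Of 3 genes whose products inhibit histone acetylation, Anp32b rose (0.51 ± 0.09, edgeR adjusted p = 0.00139). None of the 3 BET readers of acetyl-lysine was called.

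With the ApoE particle in set 2, 15 of 73 partners were called higher and 7 lower, where 22.1% of all genes were called. Set, which binds histones and shields them from acetylation, rose (0.42 ± 0.06, edgeR adjusted p = 1.26e-05), and so did Anp32b of the same list (0.66 ± 0.08, 5.29e-06). Both Hat1 partners rose slightly, Rbbp7 by 0.16 ± 0.05 (edgeR adjusted p = 0.0267) and Rbbp4 by 0.15 ± 0.05 (0.0459). Among TIP60 subunits 4 of 15 were called, all higher, including the helicases Ruvbl2 (0.31 ± 0.07, edgeR adjusted p = 0.00342) and Ruvbl1 (0.28 ± 0.08, 0.0138). Jade1 (0.47 ± 0.10, edgeR adjusted p = 0.00101) and Jade3 (0.42 ± 0.10, 0.00499) of the HBO1 complex rose.

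Trrap, the large scaffold shared by SAGA and TIP60, fell in set 2 (−0.37 ± 0.05, edgeR adjusted p = 2.62e-06), and Eny2 of SAGA rose (0.26 ± 0.07, 0.00629). Among the CBP and p300 partners, Cited2, which competes for p300, rose (0.40 ± 0.10, edgeR adjusted p = 0.00598) and Atf1 fell (−0.45 ± 0.16, 0.0388). Of the MSL and NSL subunits 2 of 10 were called higher and 3 lower, Mcrs1 at −0.25 ± 0.07 (edgeR adjusted p = 0.00951) and Msl2 at 0.24 ± 0.07 (0.0227).

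The interaction term for set 2 minus set 1 called 10 of 73 partners higher and 7 lower, where 31.1% of all genes were called. Those called higher included Set (0.59 ± 0.10, edgeR adjusted p = 0.000279), Meaf6 (0.53 ± 0.10, 0.0012), Atxn7l3 (0.49 ± 0.10, 0.00122) and Phf20 (0.49 ± 0.11, 0.00234). Those called lower included Atf1 (−1.19 ± 0.20, edgeR adjusted p = 0.000449), Jade2 (−1.11 ± 0.23, 0.00163), Actl6a (−1.0 ± 0.19, 0.00101) and Crtc3 (−0.61 ± 0.12, 0.00154). Atxn7 (−0.55 ± 0.17, edgeR adjusted p = 0.0245) and Brd8 (−0.39 ± 0.10, 0.00871) were also called lower.

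With the reconstituted particle in place of the ApoE particle, 6 of 73 partners were called higher and 10 lower, near the 20.3% called among all genes. Anp32b (−0.73 ± 0.08, edgeR adjusted p = 1.54e-06), Set (−0.37 ± 0.06, 6.34e-05) and Jade1 (−0.55 ± 0.10, 0.000234) were lower. Cited2 (−0.47 ± 0.10, edgeR adjusted p = 0.00176), Jade3 (−0.36 ± 0.10, 0.0145), Ruvbl2 (−0.36 ± 0.07, 0.000899), Ruvbl1 (−0.28 ± 0.08, 0.0183) and Rbbp7 (−0.18 ± 0.05, 0.0137) were lower too. Trrap (0.32 ± 0.05, edgeR adjusted p = 1.98e-05) and the p160 coactivator Ncoa1 (0.30 ± 0.05, 0.000166) were higher, as were Mcrs1 (0.22 ± 0.07, 0.022) and Hcfc1 (0.17 ± 0.05, 0.0143) of the NSL complex. No partner was called for the reconstituted particle against control or for ADM.

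Among the partners in the hippocampus, ApoE shRNA with FC against control shRNA with FC put 1 of 19 SAGA and ATAC subunits past the fold higher and 2 lower, 1 of 15 TIP60 subunits lower and 3 of 10 CBP and p300 partners lower, where 27.4% of all genes were past it. With FC against without FC under control shRNA, 1 of 8 MOZ/MORF and HBO1 subunits and 1 of 10 CBP and p300 partners were past it, both higher, where 20.4% of all genes were. Between ApoE shRNA with FC and control shRNA without FC, 1 of 10 CBP and p300 partners was past it, lower, where 9.93% of all genes were. No gene of the other partner lists was past the fold in these comparisons.

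Genes with the most similar pattern were sought over the 14 neuron libraries, in log2 CPM centred within each table, among 10661 named genes with a mean of at least 5 CPM in every neuron table. The libraries of a group share their treatment, so these coefficients are descriptions. For Kat2b they were Cpne3 (Pearson r = 0.954) and Cdon (0.950), for Hat1 Npc2 (0.965) and Paics (0.964), for Kat2a Ctif (0.972) and Gabra3 (0.971), and for Ep300 Rsf1 (0.939) and Baz2b (0.936). For Kat6a they were Ddhd1 (0.979) and Zfp26 (0.961), for Kat6b Fmr1 (0.948) and Adal (0.941), and for Kat7 Syce2 (0.926) and Bicd1 (0.925). The closest genes to Crebbp were Dlx2 (0.907) and Elavl1 (0.906), to Kat5 Tbcc (0.909) and Napa (0.902), and to Kat8 Mageh1 (0.890) and Unc50 (0.878).

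Kat5 values are uncertain in one respect. In the reference annotation Kat5 shares 4003 bases with Rnaseh2c on the opposite strand, and the strand setting of the counting is not given in the sources used here. Rnaseh2c had 15.8 and 16.0 CPM with the ApoE particle in set 1, against 11.2 and 9.83 CPM in the controls (0.49 ± 0.14, edgeR adjusted p = 0.02), while Kat5 had 34.6 and 33.7 CPM against 35.0 and 33.7 CPM. Against control in set 2, the reconstituted particle gave log2 fold changes of −0.38 ± 0.14 for Rnaseh2c and −0.18 ± 0.08 for Kat5. Both were lower, and neither was called. The part of reads from Rnaseh2c in the Kat5 values was not tested. Kat8 overlaps Prss8 by 122 bases, and Prss8 had at most 0.239 CPM in the neuron libraries. Kat2b and Hat1 each contain a processed pseudogene on the opposite strand.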

How the data were processed

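Per the labels' protocols, libraries were made from 2 μg of Trizol-extracted total RNA with the NEBNext Ultra kit for Illumina sequencing. HISAT2 2.1.0, Bowtie2 2.2.3 and HTSeq 0.6.0, with mm10 as the genome, appear in the submitters' processing notes, and neither the role of each nor the strand setting is stated in the sources used here. The authors deposited 4 tables, one per experiment, of unnormalized counts per gene (whole numbers).

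Exon lengths, the union of all annotated exons of a gene, came from the GENCODE annotation of the same build. The members and all lists were chosen with earlier results of these data known. Each neuron comparison used edgeR 4.0.16 (R 4.3.3): filterByExpr, TMM scaling, robust quasi-likelihood fit, F test, and Benjamini-Hochberg adjustment over all genes tested, with 0.05 as the threshold for a call. The 3 groups of set 2 shared 1 fit, and differences between experiments were interaction terms over genes in both tables. Standard errors were taken from F. A rank-based or permutation test of 2 libraries against 2 cannot go below p = 0.333. Scripts were tested on simulated data. Hippocampus libraries were compared by log2 ratios of CPM (0.5 counts added) with exact binomial 95% intervals, for genes whose higher library had at least 100 counts, with 0.5 as the fold. In set 2, 1489 genes had values only for the reconstituted particle libraries (0.232% and 0.226% of their counts) and were left out. Replicate numbers are shared by the groups of a table and were not taken as pairs.

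All 10 members are described. Partner genes are named where called, at most 2 per list and comparison by largest fold change, and the 2 genes nearest in pattern are named for each member. Alternatives were DESeq2 1.42.0, DESeq2-type size factors (RLE), library totals as the scale, no filter on low counts, no robust estimation, a replicate block and leaving out each library in turn. For set 2, a fit of only the 2 groups compared was added after the data were seen. For the hippocampus they were a prior of 2 counts, TMM factors and a minimum of 10 counts, and for the levels TMM-scaled CPM.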

Additional observations from a re-analysis of the deposited data

Results flagged for a closer look

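The ApoE particle effect on Kat2b differed between the experiments by a direct test. The interaction term was −0.95 on the log2 scale for set 2 minus set 1 (edgeR adjusted p = 0.00206). By the separate fits the log2 fold change was −0.20 in set 2 and 0.72 in set 1. With at most 2 libraries in a group, no single library could be examined for standing apart from its group by the gap between samples.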

How the results depend on the processing

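Of 810 recomputed fold changes of members, 785 kept their side of the threshold, 14 calls were lost and 11 gained. No called value changed sign, and 42 values that were uncalled both ways did, 5 of them outside leaving out a library. In set 1 the count of called members was 3, and 2 to 5 when 1 library was left out. For the ApoE particle in set 2 it was 2, and 1 by DESeq2, without the filter on low counts and with the replicate block, and 0 to 1 without 1 library. For the reconstituted against the ApoE particle it was 2, and 1 by DESeq2 and 1 to 2 without 1 library. For set 2 minus set 1 it was 1, and 3 with library totals as the scale and 1 to 3 without 1 library. The counts of 0 for ADM, for the reconstituted particle against control and for ADM against the set 1 effect held in every alternative.

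Over all genes the ADM count of 0 became 304 by DESeq2, 128 without the filter, 465 with the replicate block and up to 641 without the first ADM library. For ADM minus the set 1 effect it became 207, 62 and 502 under the same alternatives, 1 with RLE factors and up to 555 without the second ADM library. For the reconstituted particle against control it became 8 without the filter, 4 with only the 2 groups compared, 1 with the block and up to 4 without 1 library. In set 1 it was 3521 without the second particle library, against 5993. For the ApoE particle in set 2 it was 2358 by DESeq2 and 2297 without the first control, against 3617, and for the reconstituted against the ApoE particle 2186 by DESeq2, against 3319. For set 2 minus set 1 it was 3492 without the second particle library of set 1, against 5320. The causes were not tested.

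Same-numbered libraries deviated together in the ADM table (correlation 0.484), and not in set 1 (0.023) or set 2 (−0.075 to 0.042). Among members the block changed only the Kat2a call in set 2 (edgeR adjusted p = 0.0619). With TMM-scaled CPM, 11 of 70 group levels moved by over 1 SD, and none of 90 hippocampus ratios left its interval. A group of 2 libraries gives a loose estimate of spread, and the intervals of several members span changes as large as those called elsewhere.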
